A study of Mus musculus with 12 samples.

Results

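The enzymes and chaperones that fold procollagen in the endoplasmic reticulum were followed in bone marrow mesenchymal stem/stromal cells (MSCs) cultured with or without hematopoietic stem/progenitor cells (HSCs). The group holds 10 genes, P3h1, Crtap, Ppib, P4ha1, P4ha2, P4hb, Plod1, Plod2, Plod3 and Serpinh1, and every probe set that the platform annotation assigns to 1 of these symbols alone was taken. This gave 16 probe sets of 45037 on the array, or 10 genes of the 18193 that could be named, with 4 genes read by 1 probe set and 6 genes by 2. Where a gene had 2 probe sets, the brighter stands for the gene and the other is given beside it.

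Affymetrix mouse arrays measured total RNA from 6 MSC and HSC co-culture samples (treated group) and 6 MSC-only samples (control group), all on day 6. Wells were seeded with 3000 MSCs, to which 7000 HSCs were added for the treated group and 0 for the control group. All cells came from bone marrow of mice that the labels give as C57BL6/J (C57BL/6JJcl in the growth protocol), male and aged 6 weeks, with MSCs selected by Sca-1 and PDGFR-α, and HSCs by c-Kit and Sca-1 in the absence of lineage markers. The study's methods also describe mice with a CAG-driven EGFP transgene as a source of MSCs for co-culture, and the labels do not say whether the MSCs of these arrays carried it. The comparison asks whether culture with HSCs changed the MSC profile. The labels do not say how many animals were pooled, whether the samples of a group were separate cultures, or whether the HSCs of these samples touched the MSCs or sat in inserts, so p-values measure only the spread between these arrays. The precision of every value is limited by the number of arrays.

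Fibrillar collagen is made as procollagen chains that are hydroxylated on proline and lysine while still unfolded, then wound into a triple helix from the C-terminal end. Prolyl 4-hydroxylation stabilises the helix, lysyl hydroxylation prepares the sites of sugar attachment and crosslinking, and prolyl 3-hydroxylation of a few residues is carried out by a complex of prolyl 3-hydroxylase 1, CRTAP and cyclophilin B. HSP47, the product of Serpinh1, binds the finished helix and travels with it toward the Golgi. The hydroxylases need molecular oxygen, iron and ascorbate, and P4ha1, P4ha2, Plod1 and Plod2 are known targets of the hypoxia-inducible factors.

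Promoter windows of 300 bases, most of them upstream and the last 50 downstream of an annotated start, came from RefSeq (GRCm38.p6). They covered 9 of the 10 genes, all but Plod2, in 10 windows. Those of 4 genes are shown because the results below turn on them. P3h1 and P4ha2 were taken for their differences between the groups. P4ha1 and Plod1 were taken for a pattern over the arrays that their brighter probe sets share with Plod2. Capitals mark ACGTG, the core of the hypoxia response element, on either strand (CACGT where it lies on the other strand), and a line with no capitals holds none. The windows are chr4:119232665-119232964 (plus strand) for P3h1, chr11:54100674-54100973 (plus strand) for P4ha2, chr10:59323046-59323345 (plus strand) for P4ha1 and chr4:147936727-147937026 (minus strand) for Plod1, each around the annotated start of its gene.
P3h1: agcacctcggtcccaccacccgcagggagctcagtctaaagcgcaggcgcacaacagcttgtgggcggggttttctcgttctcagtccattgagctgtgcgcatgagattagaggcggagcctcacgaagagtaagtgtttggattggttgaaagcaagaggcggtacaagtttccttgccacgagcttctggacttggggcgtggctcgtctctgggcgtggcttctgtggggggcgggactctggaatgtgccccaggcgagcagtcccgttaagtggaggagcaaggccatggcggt
P4ha2: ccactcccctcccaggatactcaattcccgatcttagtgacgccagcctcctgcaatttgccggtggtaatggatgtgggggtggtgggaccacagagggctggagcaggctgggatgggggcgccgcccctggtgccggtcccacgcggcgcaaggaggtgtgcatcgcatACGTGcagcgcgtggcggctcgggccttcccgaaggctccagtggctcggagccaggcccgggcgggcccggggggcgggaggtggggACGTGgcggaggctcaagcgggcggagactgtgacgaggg
P4ha1: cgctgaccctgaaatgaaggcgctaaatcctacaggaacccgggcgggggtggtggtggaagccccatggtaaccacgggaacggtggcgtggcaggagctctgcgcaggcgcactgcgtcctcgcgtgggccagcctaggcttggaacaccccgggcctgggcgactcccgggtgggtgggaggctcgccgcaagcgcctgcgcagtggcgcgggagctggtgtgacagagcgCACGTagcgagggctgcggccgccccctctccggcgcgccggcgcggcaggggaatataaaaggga
Plod1: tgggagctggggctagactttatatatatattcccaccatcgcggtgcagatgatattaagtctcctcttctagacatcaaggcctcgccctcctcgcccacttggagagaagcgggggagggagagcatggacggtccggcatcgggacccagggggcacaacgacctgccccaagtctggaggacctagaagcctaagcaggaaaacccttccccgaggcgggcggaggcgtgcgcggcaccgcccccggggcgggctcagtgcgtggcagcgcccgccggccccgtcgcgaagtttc
The core stood in 7 of the 10 windows, 1 window each of 7 genes, and in 19.6% of all 32851 mouse promoter windows of the table. Crtap and Plod1 held none, and P3h1 held none in the window shown and 2 in a window at a second annotated start (chr4:119233579-119233878). Differences in base composition between these windows and the rest of the table were not taken into account. The CCAAT box, searched on both strands, was present in 37.4% of all windows and in windows of P3h1, Ppib, P4hb and Plod3. The longer ER stress element, which contains that box (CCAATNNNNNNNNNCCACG), was present in 0.119% of all windows and in 0 of the members' windows. A match of letters is a description and shows no binding.

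The arrays were alike in scale, with a median signal of 74.8 to 85.5 in the controls and 77.2 to 89.0 in the treated group. Sex-linked genes went against the label. Xist, which is transcribed from the inactive X chromosome, read 60.5 to 117.6 in control arrays 1, 2, 5 and 6, and 13136 to 21978 in the other 8 arrays. Eif2s3y, which is on the Y chromosome, read 2604 to 2845 in those 4 control arrays, 1022 to 1331 in treated arrays 1, 2, 5 and 6, and at most 13.6 in arrays 3 and 4 of both groups. The label was thus met by 4 control arrays and contradicted by 8 arrays, since arrays 3 and 4 of both groups carried the X-linked signal alone and the remaining 4 treated arrays carried both kinds, and results are given with and without arrays 3 and 4. Markers of macrophages were bright in both groups, with a signal summed over 12 genes of 220920 to 306547 in the controls and 232038 to 308418 in the treated group, and Ptprc, the CD45 gene whose protein the MSC sort selected against, read at least 10425 on every array. Markers of the other cell types were dim, with summed signals in the control and treated groups of 117.9 to 160.4 and 117.3 to 205.8 for 5 progenitor genes, 259.8 to 432.1 and 278.9 to 465.8 for 4 erythroid genes, 92.3 to 235.6 and 111.9 to 216.0 for 3 osteoblast genes, and 790.8 to 1494 and 736.7 to 1653 for 6 endothelial genes, of which Vwf gave the most and Pecam1 at most 36.6 on any array. Stromal markers were present, with a summed signal over 13 genes of 22037 to 50089 (median 39113) in the controls and 20495 to 47860 (median 29838) in the treated group. Their median difference was -0.36 on the log2 scale, with 11 of 13 lower in mean in the treated group. A smaller number of stromal cells and less RNA per cell cannot be told apart in such samples, nor can the cell type from which a member's RNA came.

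Differences below are treated minus control means of log2(signal + 16), tested with limma and adjusted over all 45037 probe sets. Of the 16 member probe sets, 0 passed an adjusted p of 0.05 (limma), where 0.00444% of all probe sets, 2 of them, did. At an unadjusted p under 0.05, 1 of the 16 was lower in the treated group, against 1.55% of all probe sets, and 0 were higher, against 2.81%. With 1 value per gene, 7 of the 10 means were lower in the treated group and 3 were higher, with a median difference of -0.16, beside 0.01 over all 18193 genes. The group label accounted for a median of 9.07% of the members' variance over the 12 arrays, beside 3.83% over all genes. No member therefore passed the test across the array, and the member that came nearest was P3h1.

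**Figure D1:**
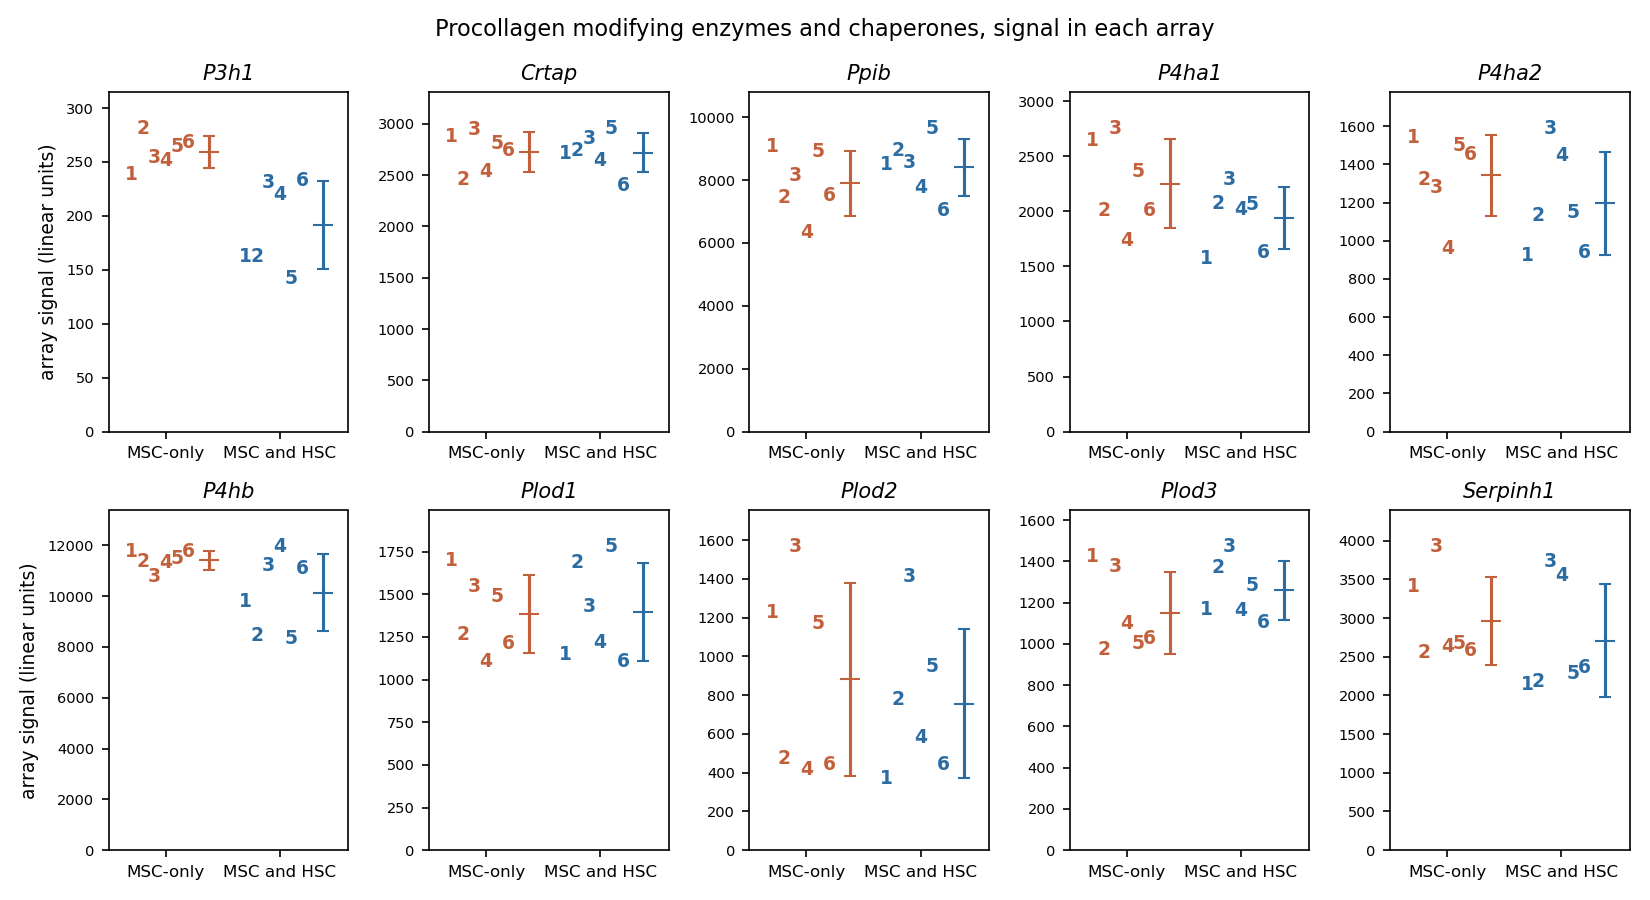
Signal of each of the 10 genes (brighter probe set, linear units, axis from 0) in the 6 MSC-only arrays and the 6 arrays of the MSC and HSC co-culture group; digits are the array numbers and the bar beside each group is the mean ± SD. P3h1 is the gene whose 6 treated values, 141.6 to 232.8, all lie below its 6 control values, 238.8 to 281.1, and Plod2 is the gene that spreads most within both groups.

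The prolyl 3-hydroxylase complex is taken first. P3h1 encodes its catalytic subunit. Its brighter probe set (1452752_at) read 238.8, 259.2 and 281.1 (lowest, median and highest) in the controls and 141.6, 191.4 and 232.8 in the treated group. Treated arrays 1, 2 and 5 were the low ones, at 141.6 to 162.7, while treated arrays 3, 4 and 6 lay at 220.0 to 232.8, just under the lowest control array, so the groups did not overlap. The group means were 260 ± 14.7 and 192 ± 40.7 (SD, n = 6 each), a difference of -0.43 (SE 0.13, 95% interval -0.71 to -0.15) with an adjusted p of 0.939 (limma). A complete separation gives the smallest p that an exact permutation test can reach with 6 arrays against 6, 0.0022 over all arrangements (two-sided), and that p adjusted over all probe sets was 1.0. Every treated array was below every control array in 0.0733% of all probe sets, 33 in number. P3h1 and P4hb are genes that the study itself named from these samples, so their values are a description and not independent evidence. The legend of the panel that lists them gives its genes as highly expressed in co-culture. The study's text gives type I collagen synthesis among gene sets inhibited in co-cultured MSCs. Both genes were lower in mean in the treated group here.

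The dimmer P3h1 probe set (1421462_a_at) did not separate the groups. It read 76.7, 160.7 and 173.5 in the controls and 80.1, 127.4 and 173.4 in the treated group, a difference of -0.15 (SE 0.20). Control array 4 was its lowest value, far under the other control arrays at 135.5 to 173.5. Crtap, the scaffold subunit that binds prolyl 3-hydroxylase 1 and keeps it stable, read 2458, 2775 and 2943 in the controls and 2398, 2725 and 2955 in the treated group. The ranges were nearly the same, and the difference was -0.01 (95% interval -0.19 to 0.18). Ppib, which encodes cyclophilin B, the proline isomerase of the complex, read 6319, 7824 and 9056 in the controls and 7024, 8523 and 9642 in the treated group, a difference of 0.09 (95% interval -0.15 to 0.34). Its second probe set differed by 0.02. The lower P3h1 mean thus stood beside partner genes whose intervals included 0 and were centred within 0.1 of it.

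Prolyl 4-hydroxylase is a tetramer of catalytic alpha subunits, from P4ha1 or P4ha2, and of protein disulfide isomerase, the product of P4hb, as the beta subunit. P4hb read 10779, 11430 and 11777 in the controls, where the arrays lay close together, and 8331, 10448 and 11941 in the treated group. Treated arrays 1, 2 and 5 were below every control array, the same 3 arrays that were lowest for P3h1, and the other 3 treated arrays lay within or above the control range. The difference was -0.18 (SE 0.11, 95% interval -0.42 to 0.05) with an unadjusted p of 0.110 and an adjusted p of 1.0 (limma).

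P4ha1, which encodes the alpha subunit most cells use, read 1738, 2186 and 2753 in the controls and 1576, 2039 and 2290 in the treated group. Control arrays 1 and 3 were high and treated arrays 1 and 6 low, with the rest overlapping. The difference was -0.21 (95% interval -0.51 to 0.10), and the second probe set differed by -0.12 (SE 0.15). P4ha2, the other alpha subunit, read 962.1, 1386 and 1544 in the controls and 922.0, 1139 and 1589 in the treated group, a difference of -0.18 (95% interval -0.53 to 0.17). Arrays 3 and 4 stood at opposite ends in the groups, as the lowest control arrays at 1281 and 962.1 and as the highest treated arrays at 1589 and 1448.

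Lysyl hydroxylases are encoded by the Plod genes. Plod1, which acts on the helical part of the chain, read 1104, 1373 and 1696 in the controls and 1108, 1322 and 1777 in the treated group, a difference of 0.00 (95% interval -0.33 to 0.33). The direction of this value, like that of Crtap, turned with the scaling used. Its second, dim probe set read 51.2 to 103.9 in the controls and 60.2 to 103.7 in the treated group, a difference of 0.28 (95% interval -0.06 to 0.62). Plod3, which also transfers sugars to hydroxylysine, read 970.8, 1062 and 1425 in the controls and 1102, 1225 and 1471 in the treated group. Control arrays 1 and 3 lay among the higher treated values, and the difference was 0.14 (95% interval -0.13 to 0.41).

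Plod2, which hydroxylates the telopeptide lysines used in crosslinks, varied more than any other member. Its values in control arrays 1 to 6 were 1225, 475.5, 1565, 415.9, 1168 and 443.7, and in treated arrays 1 to 6 they were 372.1, 777.3, 1411, 583.6, 950.1 and 440.2. Each group held 3 high and 3 low arrays, and the highest array was 4.21 times the lowest. The groups differed by -0.16 (SE 0.41, 95% interval -1.04 to 0.72), with 1.26% of its variance lying between them. Its second probe set differed by -0.18 (SE 0.23).

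Serpinh1, the collagen-specific chaperone HSP47, read 2559, 2653 and 3921 in the controls and 2136, 2321 and 3733 in the treated group. Treated arrays 1, 2, 5 and 6 were below every control array while treated arrays 3 and 4 lay at 3733 and 3554, near the top of the control range. The difference was -0.15 (SE 0.18, 95% interval -0.53 to 0.23), and the second probe set, which divided the treated arrays in the same way, differed by -0.21 (SE 0.20).

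**Figure D2:**
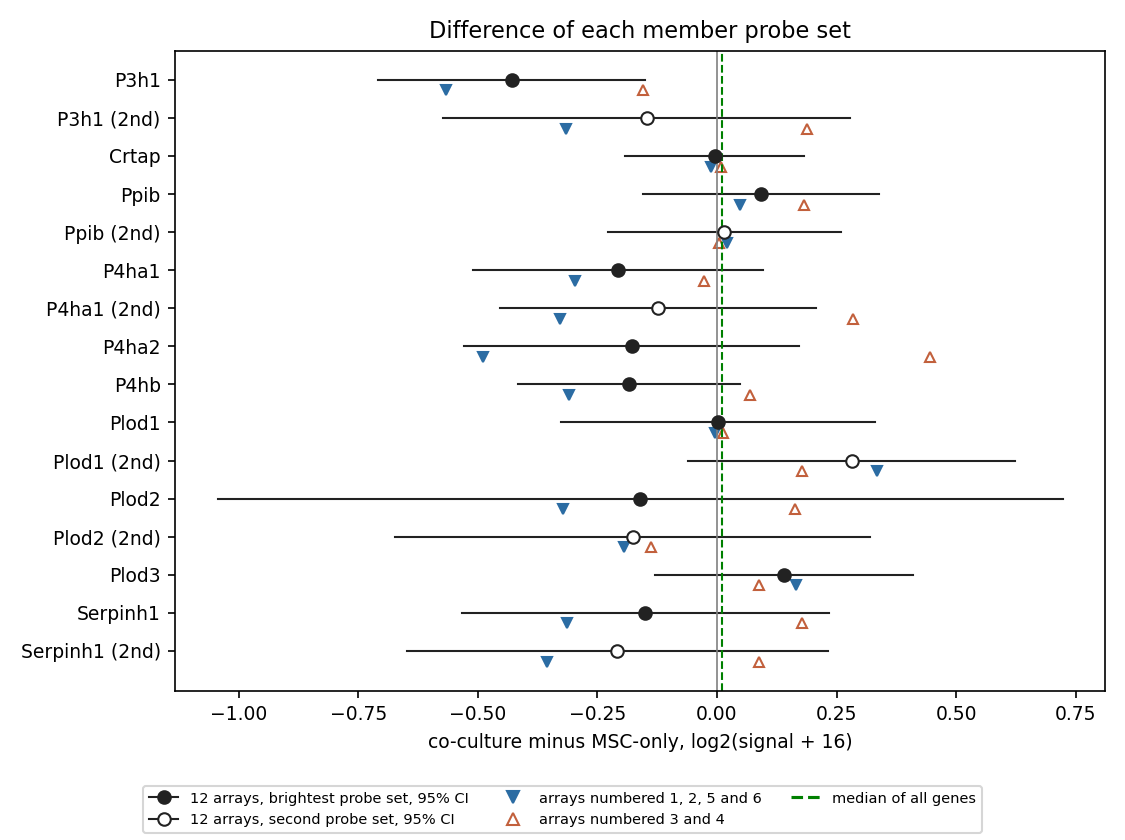
Treated minus control difference in log2(signal + 16) of all 16 member probe sets, with the 95% interval over 12 arrays as a line, the value over arrays 1, 2, 5 and 6 as a downward triangle, the value over arrays 3 and 4 alone as an upward triangle, and the median of all genes as a dashed line. The interval of the brighter P3h1 probe set, -0.71 to -0.15, is the one that leaves out 0, and the triangles stand farthest apart for P4ha2, at -0.49 and 0.44.

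Arrays 3 and 4, which lacked the Y-linked signal in both groups, moved several of these differences. Without them, with 4 arrays in each group, P3h1 differed by -0.57 (SE 0.16), P4ha2 by -0.49 (SE 0.13), P4hb by -0.31 (SE 0.13) and Serpinh1 by -0.31 (SE 0.13), and the median over the 10 genes was -0.30. In these 8 arrays the Xist signal was high in all 4 treated arrays and low in all 4 control arrays, so the larger differences cannot be told apart from whatever divides the arrays by Xist. These 4 of the 16 probe sets were then lower at an unadjusted p under 0.05, against 2.83% of all probe sets, and 0 passed after adjustment, with limma adjusted p-values of 0.545 for P3h1, 0.518 for P4ha2, 0.718 for P4hb and 0.719 for Serpinh1. In arrays 3 and 4 alone, P3h1 differed by -0.15 (0.19 in its dimmer probe set), P4ha2 by 0.44, P4hb by 0.07 and Serpinh1 by 0.18, with a median over the 10 genes of 0.08. This second set of values rests on 2 arrays in each group and was chosen after the data had been seen. The difference between the 2 sets of arrays was itself tested as an interaction, and 1 of the 16 probe sets, that of P4ha2, had an unadjusted p under 0.05, against 7.36% of all probe sets. For P4ha2 the interaction was 0.93 (SE 0.23) with an adjusted p of 0.406 (limma), and for P3h1 it was 0.41 (SE 0.25) with an adjusted p of 0.772. A difference in sex, in cell origin or in preparation between these arrays cannot be told apart. Over all 12 arrays the Xist signal was high in every treated array but, among the controls, in arrays 3 and 4 only. The differences over 12 arrays, that of P3h1 included, thus cannot be fully told apart from this division either.

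The level of stromal RNA moved with several members. With the mean log2 level of the stromal markers as a covariate, the brighter P3h1 probe set kept a difference of -0.42 (SE 0.13, limma adjusted p 0.888). The dimmer P3h1 probe set went from -0.15 to -0.03 (SE 0.15). P4ha1 went from -0.21 to -0.11, P4ha2 from -0.18 to -0.07, Serpinh1 from -0.15 to -0.06 and Plod2 from -0.16 to 0.16. P4hb stayed at -0.18. Ppib went from 0.09 to 0.15, Plod1 from 0.00 to 0.09, Plod3 from 0.14 to 0.20 and Crtap from -0.01 to 0.03. The stromal markers include Postn, a matrix protein of activated fibroblasts, at 5599 ± 1764 in the controls and 3571 ± 717 in the treated group, and Col1a2 and Cxcl12, which differed by -0.25 and -0.43. Postn, too, is a gene that the study named from these samples. Of the 13 markers, Dcn and Lum were higher in mean in the treated group, Dcn by 0.29 (SE 0.62) and Lum, the dimmest, by 1.03 (SE 0.40, unadjusted limma p 0.0237) from 24.8 ± 22.1 to 69.2 ± 56.4. Macrophage markers had a median difference of -0.00. The part of cell composition in the members' values was not tested beyond this covariate.

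A second source of variation ran across both groups. The first principal component of all probe sets but the 16 of the members held 21.6% of the variance. It set control arrays 1, 3 and 5 and treated arrays 2, 3 and 5, that is 3 of each group, apart from the other 6. In their brighter probe sets, Plod2, P4ha1 and Plod1 had their 6 highest values in exactly these arrays. For Plod2 they were at least 777.3 where the other 6 were at most 583.6, for Plod1 at least 1430 against at most 1262, and for P4ha1 at least 2066 against at most 2013, so the gap was wide for Plod2 and narrow for P4ha1. With the brighter probe set for each gene, this made 3 of 10 members, or 30%, beside 4.64% of all genes. It is a description that follows the largest component of the same data and carries no test. The second probe set of Plod2 had the same 6 highest arrays, by 261.1 against 259.0. That of P4ha1 did not, with control arrays 2 and 6 and treated array 4 among its 6 highest (579.0, 608.2 and 614.6). Nor did the dim second probe set of Plod1, with treated arrays 4 and 6 among them (71.9 and 103.7). Crtap, Ppib and Plod3 shared 5 of the 6 arrays, Serpinh1 shared 4, P3h1 and P4ha2 shared 3, and P4hb shared 2.

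Some known hypoxia targets divided the arrays in the same way. Of the 12 measured, 5 had their 6 highest values in these arrays: Vegfa, the vascular growth factor, Slc2a1, a glucose transporter, Bnip3, a mitophagy receptor, Egln3, an oxygen sensor that is itself induced by hypoxia, and Adm, the vasodilator adrenomedullin. Vegfa read at least 1602 in these 6 arrays and at most 632.5 in the others, Adm at least 940.3 and at most 547.7, and Bnip3 at least 4456 and at most 3095. The gap was narrow for Slc2a1, at least 2836 against at most 2662, and for Egln3, at least 202.6 against at most 197.9. Ndrg1, also a hypoxia target, ran the other way, with its 6 highest values in the other 6 arrays. Ero1a, the oxidase that recharges protein disulfide isomerase and another known hypoxia target, followed Vegfa, with at least 2600 against at most 1466. The promoter windows of P4ha1, Plod1 and P4ha2 shown above do not sort these genes by the pattern. P4ha1 holds an ACGTG core, Plod1 holds none, and P4ha2 holds 2 without sharing the pattern. No window was available for Plod2, the member with the widest gap, so the pattern could not be set against its promoter.

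**Figure D3:**
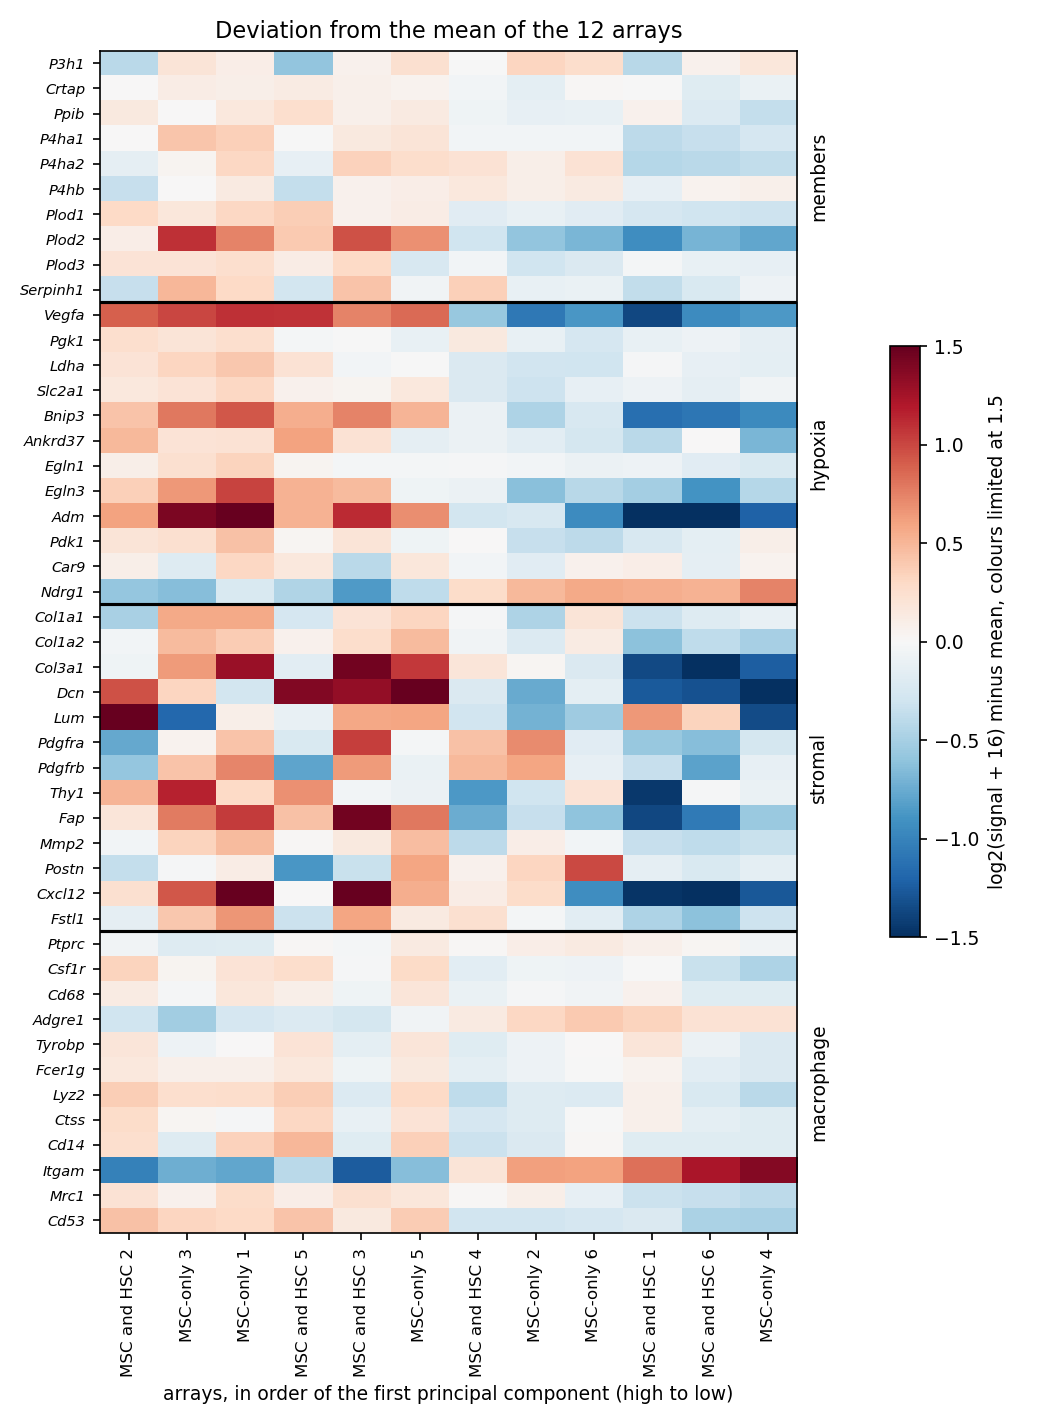
Deviation of each gene from its mean over the 12 arrays, on log2(signal + 16), for the members, hypoxia targets, stromal markers and macrophage markers, with the arrays ordered by the first principal component and colours limited at 1.5. The brightest probe set stands for each gene. The 6 arrays on the left, 3 of each group, hold the highest values of Plod2, Plod1, P4ha1, Vegfa, Bnip3 and Adm, whereas P3h1 is lowest in treated arrays 5, 1 and 2, which lie on both sides.

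Oxygen, cell density and time of harvest are not recorded for the arrays, and their part in this division was not tested. Stromal markers also ran with it in part, since their summed signal was 29561 to 50089 in these 6 arrays and 20495 to 34825 in the others, and so did some macrophage genes, such as Cd53 with the same 6 highest arrays and Itgam with the opposite 6. With the first component as a covariate, an alternative chosen after the data had been seen, P3h1 differed by -0.43 (SE 0.12) and P4ha1 by -0.20 (SE 0.08), with limma adjusted p-values of 0.783 and 0.925. Plod2 differed by -0.14, and its SE went from 0.41 to 0.17. The component was balanced between the groups, with a mean of 0.57 (SD 41.8) in the controls and -0.57 (SD 44.2) in the treated group. As a covariate it could therefore hardly move a group difference, and the unchanged size of these differences carries no information. The spread became smaller around the Plod2 difference and also around that of P4ha1, whose SE had been 0.14 without the covariate.

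Other genes of procollagen biology were read from 6 lists, of which 67 of 71 genes had a probe set. Of these, 0 passed the adjusted threshold, and 4 reached an unadjusted p under 0.05 on the lower side and 0 on the higher. Over all 18193 genes, 266 did so on the lower side and 446 on the higher. The means of 54 of the 67 were lower in the treated group, where 8498 of all 18193 genes were. Fibrillar chains also serve as stromal markers, so this count is not separate from the stromal level given above. The 12 measured genes of other ER modification were all lower in mean, with a median of -0.24. Among them P3h4 (SC65), a partner of prolyl 3-hydroxylase 3 in lysyl hydroxylation of the helix, was 342 ± 36.2 in the controls and 274 ± 39.8 in the treated group, a difference of -0.31 (SE 0.11, unadjusted limma p 0.0180). P3h3 itself was 371 ± 53.6 and 300 ± 47.5, a difference of -0.30 (SE 0.13, unadjusted limma p 0.0359). For both genes 4 of 6 treated arrays were below every control array. Fkbp14 and Fkbp9, proline isomerases of the ER, differed by -0.28 and -0.25, Kdelr3, a retrieval receptor for ER proteins, by -0.31, and Kdelr2 and Colgalt1, which with Fkbp9 were the brightest of the list, by -0.05 and -0.11.

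Genes of procollagen export from the ER lay near 0, with a median of -0.04, 8 of 10 lower and 0 past an unadjusted p of 0.05. Sec23a and Sec24d, coat proteins of the export vesicles, differed by -0.08 and -0.09, Sec31a and Klhl12, the adaptor that enlarges the coat for procollagen, by -0.06 and -0.11, and the brightest, Sar1b, Tfg and Sec13, by -0.01, 0.01 and -0.01. Of 10 measured genes of extracellular processing and crosslinking, 7 were lower in mean, with a median of -0.23. Loxl3, a lysyl oxidase, was 1430 ± 246 in the controls and 1110 ± 235 in the treated group, a difference of -0.37 (SE 0.15, unadjusted limma p 0.0335). Sparc, a collagen-binding matrix protein, differed by -0.24, Lox by -0.32 and Pcolce, the enhancer of C-propeptide removal, by -0.38, while the dim Tll1 and Loxl4 stood at -0.58 (SE 0.31) and 0.57 (SE 0.37).

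The substrate chains themselves had a median difference of -0.23, with 7 of 8 lower in mean and 0 past an unadjusted p of 0.05. Col1a1 was 629 ± 167 in the controls and 477 ± 86.2 in the treated group, Col1a2 was 16633 ± 4268 and 13816 ± 2893, and Col3a1 was 3824 ± 2124 and 2929 ± 2405. The ranges of the groups overlapped for all 3. Col5a1 and Col5a2, chains of the type V collagen that starts fibrils, differed by -0.21 and -0.31. General ER folding genes had a median of -0.03, with 12 of 15 lower. Of these, Txndc5, a disulfide isomerase, was 2006 ± 128 in the controls and 1689 ± 208 in the treated group, a difference of -0.25 (SE 0.10, unadjusted limma p 0.0245) with 5 of 6 treated arrays below every control array. The bright general chaperones Hspa5 and Hsp90b1 differed by 0.03 and 0.06, Canx by -0.05, Pdia6 by -0.11 and Ero1b by -0.13. Hypoxia targets, for all their spread over the arrays, had a median difference of -0.05, with 8 of 12 lower and 0 past an unadjusted p of 0.05. Ankrd37 differed by 0.27 (SE 0.20), Adm by -0.43 (SE 0.62), Ndrg1 by -0.18, Bnip3 by -0.19 and Car9 by -0.08, and the bright glycolytic genes Pgk1 and Ldha by 0.06 and 0.01.

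**Figure D4:**
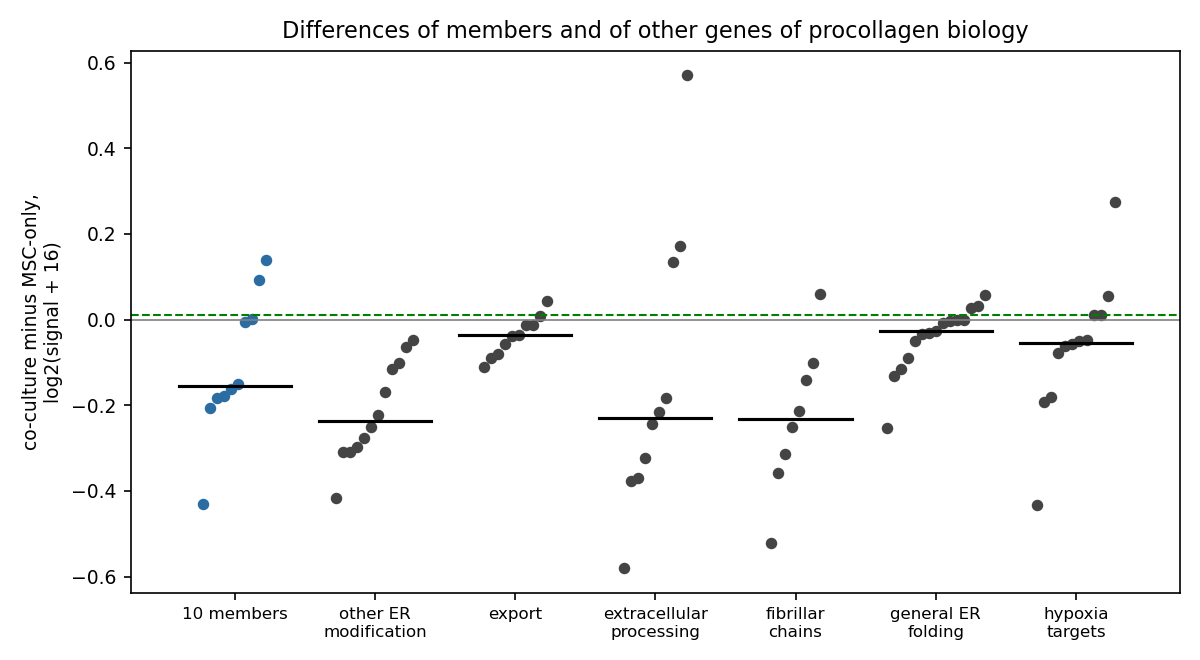
Treated minus control difference in log2(signal + 16) of the 10 members (blue) and of the genes of 6 other lists (grey), 1 point per gene, with the median of each list as a bar and the median of all genes as a dashed line. The bars of the members, other ER modification, extracellular processing and fibrillar chains lie at -0.16, -0.24, -0.23 and -0.23, and those of export, general folding and hypoxia targets between -0.05 and -0.03.

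Without arrays 3 and 4 of both groups, the medians of 3 of these lists (other ER modification, extracellular processing and fibrillar chains) moved farther below 0, as that of the members did, while general folding moved toward 0 and export and hypoxia targets moved little. Other ER modification then had 6 of 12 genes lower at an unadjusted p under 0.05, extracellular processing 5 of 10, fibrillar chains 2 of 8 and general folding 1 of 15, with 0 for export and for hypoxia targets, 0 higher in any list and 0 past the adjusted threshold. The medians of the 6 lists, in this order, were -0.40, -0.45, -0.43, -0.00, -0.08 and -0.06. Of all probe sets, 2.83% were lower at that unadjusted p in these arrays. Xist divides these arrays by group, as given above, so these counts and medians cannot be told apart from whatever goes with that division. Fkbp9 differed by -0.49 (SE 0.11), P3h4 by -0.45 (SE 0.11) and P3h3 by -0.49 (SE 0.14), near the -0.57 of P3h1, and Pcolce by -0.91 (SE 0.24). P3h1, P3h3, P3h4 and the dim P3h2, of the prolyl 3-hydroxylase family, were thus lower in mean over all 12 arrays and over these 8. P3h2 differed by -0.42 (SE 0.32) and -0.37 (SE 0.44). This was not particular to the family, since 12 of 12 and 11 of 12 genes of other ER modification, a list that holds all of these but P3h1, were lower. Crtap differed by -0.01 in both.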

How the data were processed

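Total RNA of 12 samples, 6 per group, was hybridised to Affymetrix mouse arrays by the authors, and the deposited table holds 1 linear signal intensity per probe set and array, analysed with the GeneChip Operating Software. The 2% trimmed mean was 496.6 to 497.3 on every array, while quantiles differed between arrays, and the deposited intensities thus look scaled to 1 mean but not quantile normalized; the summary method is not given in the sources used here. Sample labels gave the groups and array numbers, and no sample was left out. The platform annotation, which can be old, gives 1 symbol for 34945 of 45037 probe sets, several for 932 and none for 9160; only the first were named, and the probe set with the highest mean stood for its gene.

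Values were compared as log2(signal + 16) by lmFit and eBayes of limma 3.58.1 (R 4.3.3), with neither block nor filter and a Benjamini-Hochberg adjusted p of 0.05 over the whole table as the threshold, and by exact two-sided permutation tests over every arrangement of 6 arrays against 6. The constant of 16 makes differences of dim probe sets smaller. The script was tested on simulated data. The members and gene lists were chosen with earlier results of these data known. Genes named are all members, the up to 4 genes of each pathway list with the smallest p and its 3 brightest, and the brightest or dimmest markers; those named for the pattern over arrays or without arrays 3 and 4 were chosen after their values were seen. Listed genes without a probe set of their own symbol were not analysed here. Alternatives covered the scaling, the constant, a filter on dim probe sets, blocks by array number, limma's trend option, the methods' unpaired test, 2 covariates, arrays 3 and 4, and each array left out. Not every pair of samples with the same number deviated together, so the numbers were not used as pairs.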

Additional observations from a re-analysis of the deposited data

Results flagged for a closer look

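1 of the 32 sets of 6 values that the member probe sets give held an array far from the others. The dimmer P3h1 probe set (1421462_a_at) read 76.7 in control array 4, where the other 5 control arrays read 135.5 to 173.5, and on the log2(signal + 16) scale the gap to the nearest took a share of 0.687 of the whole range, above Dixon's 95% critical value for 6 samples. On the linear signals given here the share was 0.607, below that value. Chance gives such a gap in about 1 of 20 groups. The brighter P3h1 probe set read 251.3 on the same array, within its control range.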

How the results depend on the processing

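Under 26 alternatives, 0 member probe sets and 0 of the other pathway genes passed the adjusted threshold. The brighter P3h1 probe set stayed lower in the treated group in all of them, from -0.57 to -0.15, with adjusted p-values from 0.545 to 1.0 (limma). Its range was -0.49 to -0.35 when single arrays were left out. The dimmer P3h1 probe set turned to higher in arrays 3 and 4 alone, at 0.19. The median over the members was -0.23 to -0.02 with single arrays left out, -0.30 without arrays 3 and 4, and 0.078 in arrays 3 and 4 alone, where P4ha2 (0.4449), P4hb (0.0682), Plod2 (0.1625), Serpinh1 (0.1786) and Crtap (0.0092) turned to higher; those 5 values rest on 2 arrays a group. Values near 0 changed sign elsewhere: Crtap with centring on the 75th percentile (0.0052) and with the stromal covariate (0.028), Plod1 with centring on the median (-0.0384) and without arrays 3 and 4 (-0.0036), and Plod2 with the stromal covariate (0.1618). Leaving out single arrays gave -0.0342 to 0.0301 for Crtap, -0.0727 to 0.0628 for Plod1 and -0.367 to 0.0427 for Plod2, which turned without control array 3 (0.0427) or treated array 1 (0.0086). The cause was not tested. P4ha1, Ppib and Plod3 kept their direction throughout in the probe sets that stand for them. The second probe set of P4ha1 turned to higher in arrays 3 and 4 alone, at 0.28.

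The labels do not say what a shared array number stands for. The correlation of deviations between same-numbered arrays ran from -0.16 to 0.15, above 0.1 for 4 of 6 numbers, and 1 of 12 arrays was closest to its own number, so the numbers were not taken as pairs, although arrays 3 and 4 of both groups share their sex-linked signal. With the replicate number as a block, P3h1 differed by -0.43 (adjusted p 1.0, limma), 0 members passed, and 0 of all probe sets passed where 2 did without it. Over all probe sets the adjusted count was 8 without arrays 3 and 4, 0 to 4 with single arrays left out, 1 with the log2(signal + 1) scale, any of the 3 other scalings, the methods' unpaired test or either covariate, and 0 with log2(signal + 64), the filter on dim probe sets (20976 left) or the trend option. At an unadjusted p under 0.05 the split of higher against lower was 1264 to 700 as reported, 918 to 1010 after quantile normalization, 893 to 1065 after median centring and 1382 to 622 after centring on the 75th percentile, so directions of small differences over all probe sets depend on the scaling. Dim probe sets, such as the second of Plod1, limit what these arrays can show.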
